A study of Mus musculus with 12 samples.

Results

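The genes described here encode the subunits of the mitochondrial respiratory chain and of ATP synthase, measured in whole mouse ovaries. A gene was taken when a probe carried exactly 1 gene symbol that began with Ndufa, Ndufb, Ndufc, Ndufs, Ndufv, Uqcr, Cox4 to Cox8 or Atp5, or that was Sdha, Sdhb, Sdhc, Sdhd or Cyc1. Where a gene had several probes, the one brightest on average on the log2 scale was used. The rule gave 84 of the 18069 genes that had such a probe. Of these, 76 are subunits (31 of complex I, 4 of complex II, 9 of complex III, 16 of complex IV and 16 of ATP synthase, complex V). Ndufa4l2, a relative of a complex IV subunit, was counted with complex I by its name. The other 8 carry the prefix but are no subunits: the complex I assembly factors Ndufaf1, Ndufaf3, Ndufaf4, Ndufaf5, Ndufaf6, Ndufaf7 and Ndufaf8, and the pseudogene Ndufs5-ps. In all, 82 of the 84 were tested. Ndufaf8, which was under the arrays' limit of sensitivity of 0.2 relative intensity units on all 12 arrays, and Cox7b2 were not.

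The inner mitochondrial membrane carries the respiratory chain. Complex I takes electrons from NADH and complex II takes them from succinate, and both pass them to coenzyme Q. Complex III passes them on to cytochrome c, and complex IV hands them to oxygen. Complexes I, III and IV pump protons as they work, and ATP synthase lets the protons back through and makes ATP. Most subunits are encoded in the nucleus and imported, and a few by mitochondrial DNA, for which the arrays gave no named probe (0 of 13 listed genes). In the ovary, the oocyte depends on its mitochondria for ATP, and steroid-making cells carry out the first step from cholesterol at the inner mitochondrial membrane.

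Whole-ovary RNA came from 4 groups of 3 mice, with 1 CodeLink Mouse Whole Genome array for each animal and no pooling of samples. The study's methods do not state whether 1 or both ovaries of an animal were used. LY (lethal yellow) mice carry the Ay/a genotype, in which a deletion puts the agouti gene under the promoter of the neighbouring gene Raly, so that agouti is expressed throughout the body. Their black controls were a/a. The strain is spelled C56BL/6J in the sample labels and C57BL/6J in the study's methods. The 4 groups were black mice of 180 days, LY mice of 180 days, black mice of 90 days and LY mice of 90 days. All 12 females received the GnRH antagonist Antide at 10 microg/g on days 1 and 4 and then equine chorionic gonadotropin (eCG) at 1 IU per 5 g of body weight, and their ovaries were taken 36 h after eCG on day 7, so that no untreated ovary was measured. The design asks whether the ovaries of LY mice differ from those of black mice at an age with obesity (180 days) and at an age without it (90 days).

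The deposited values are relative intensities on a linear scale, and each array was divided here by its median, so that 1 unit is the level of the middle probe. The array medians before this step lay between 1.00 and 1.04. Agouti fitted the labels of all 12 animals: it was between 95.7 and 111 units in LY ovaries and between 0.169 and 0.368 units in black ovaries. Raly, between 7.75 and 10.9 units in LY and between 13.0 and 23.6 units in black ovaries, did not overlap either. Markers of granulosa cells, theca cells and oocytes, summed over each list, were between 174 and 416, 220 and 412, and 51.1 and 105 units, and no marker on these 3 lists was under 0.2 units on all arrays of a group. The ovary is a mixture of cells, and fewer cells of a type cannot be told apart from less RNA per cell. Of the 82 tested members, 81 were at or above 0.2 units on all 12 arrays and 63 had a mean of at least 16 units. The exception was Uqcrq.

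Promoter windows of members, from 250 bases before to 50 bases after the RefSeq start (build GRCm38.p6), were searched for the letters of 4 factors known to regulate respiratory genes: NRF-1 (GCGCATG), GABP (CCGGAAG), YY1 (AAGATGG) and ERR (AAGGTCA). Both strands were read, and in NRF-1 the letters and their reverse complement overlap where both are present. The table held 67 of the 84 members, with 72 windows, beside 32851 windows in all. NRF-1 letters stood in 18.1% of the member windows and in 3.91% of all windows. GABP letters stood in 25% and 8.86%, YY1 letters in 13.9% and 6.34%, and ERR letters in 9.72% and 4.72%. Any of the 4 was present in 37 of 72 member windows (51.4%) and in 21.6% of all windows. Over the 67 members, 30 held none, 28 held 1, 7 held 2 and 2 (Atp5k and Atp5l) held 3 of the 4. A match is a run of letters, not a bound site. The 250 bases before the start are given for 4 members as examples, of which Ndufa8 was chosen after its values were seen. They run 5′ to 3′ on the gene's strand, with motif letters in capitals. Atp5g1 had the lowest adjusted p in the comparison of LY and black mice at 180 days, and Cox5a, Atp5l and Ndufa8 were separated in opposite directions at the 2 ages when each array was divided by its median.
Atp5g1 (chr11:96075632-96075881, minus strand): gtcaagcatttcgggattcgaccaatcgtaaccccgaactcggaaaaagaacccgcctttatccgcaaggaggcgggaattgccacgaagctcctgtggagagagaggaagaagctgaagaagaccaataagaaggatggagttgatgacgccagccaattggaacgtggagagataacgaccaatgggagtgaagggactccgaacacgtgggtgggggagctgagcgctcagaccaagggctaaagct
Cox5a (chr9:57520982-57521231, plus strand): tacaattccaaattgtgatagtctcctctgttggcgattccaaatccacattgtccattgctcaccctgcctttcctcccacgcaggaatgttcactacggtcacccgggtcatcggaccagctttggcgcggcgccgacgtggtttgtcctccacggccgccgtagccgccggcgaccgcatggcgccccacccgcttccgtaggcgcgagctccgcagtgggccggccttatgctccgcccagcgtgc
Atp5l (chr9:44920743-44920992, minus strand): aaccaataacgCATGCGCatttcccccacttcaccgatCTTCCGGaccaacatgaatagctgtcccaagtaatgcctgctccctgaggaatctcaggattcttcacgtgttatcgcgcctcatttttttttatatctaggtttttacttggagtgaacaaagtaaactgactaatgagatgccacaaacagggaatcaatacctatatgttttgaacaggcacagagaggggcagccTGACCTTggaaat
Ndufa8 (chr2:36049339-36049588, minus strand): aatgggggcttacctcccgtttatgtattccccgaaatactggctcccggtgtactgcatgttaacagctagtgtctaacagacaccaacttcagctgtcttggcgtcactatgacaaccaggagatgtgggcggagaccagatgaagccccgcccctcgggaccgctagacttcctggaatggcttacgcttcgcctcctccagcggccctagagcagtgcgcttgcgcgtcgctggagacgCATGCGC
Atp5l held NRF-1, GABP and ERR letters at 239, 212 and 13 bases before the start, Ndufa8 held NRF-1 letters at 7 bases before it, and the printed bases of Atp5g1 and Cox5a held none of the 4.

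At 180 days most respiratory chain genes had a slightly higher estimate in LY than in black ovaries, and no single gene passed the test. The estimate was higher in 76 of 82 members (92.7%), beside 59.2% of the 16306 named genes tested. The median difference of the members was 0.20 on the log2 scale, with a range from -0.39 to 0.55. The median of all named genes was 0.04, and that of named genes with a mean of at least 16 or 64 units was 0.09 or 0.12. The estimate was higher in LY ovaries in 71.6% and 80.6% of these bright genes, so that the members are to be read against them. With limma and the Benjamini-Hochberg adjustment over all probes, 0 of 82 members were called, beside 0.0797% of named genes. Without adjustment, p was under 0.05 in 27 members with a higher and 1 with a lower estimate, beside 8.26% and 4.04% of named genes. The methods' t-test without adjustment called 32 members higher and 0 lower, and called 0 after adjustment. The share of named genes called by this test is not given here, so the 32 have no background beside them. The 3 LY values were all above the 3 black values in 42 members and all below them in 1, beside 16.0% and 7.05% of named genes. Among named genes of at least 16 units, the LY values were all above in 29.9%, and unadjusted p was under 0.05 with a higher estimate in 17.2%.

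On each array, the members' levels were set against each gene's mean over the 6 arrays of that age. The median of these deviations over the 82 members was -0.07, -0.04 and -0.17 on the 3 black arrays of 180 days and 0.11, 0.08 and 0.09 on the 3 LY arrays. Black replicate 3 was the lowest, and all 3 LY arrays were above all 3 black arrays. At 90 days the black arrays were at 0.03, 0.11 and -0.04 and the LY arrays at -0.05, -0.04 and -0.05. The 3 LY arrays were nearly equal, black replicates 1 and 2 were above them, and black replicate 3 was level with LY replicate 2. On the LY arrays of 180 days, 67 to 69 of the 82 members were above their mean, against 9 to 30 on the black arrays. The same count at 90 days was 23 to 27 on LY and 34 to 68 on black arrays.

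**Figure D1:**
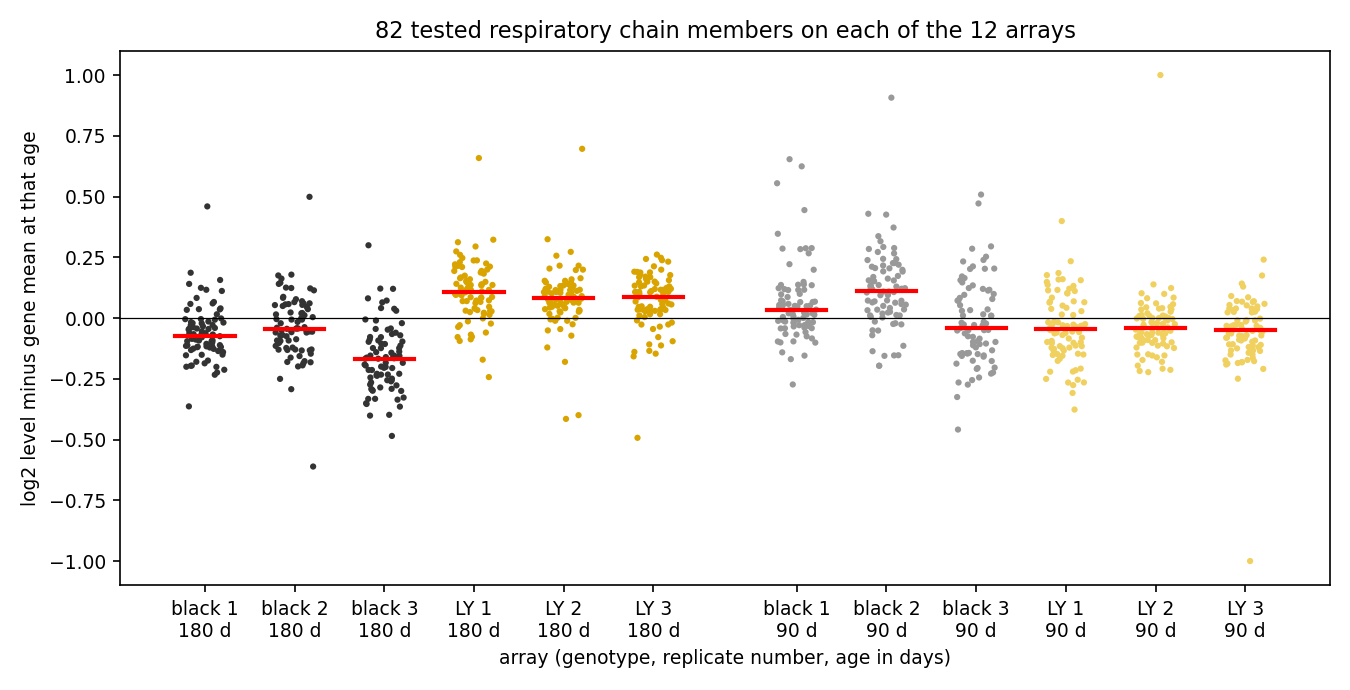
The deviation of each of the 82 tested members (dots) from its mean over the 6 arrays of the same age, on a log2 scale, for each of the 12 arrays, with the median as a red bar. The medians of the LY arrays were 0.08 to 0.11 at 180 days and -0.05 to -0.04 at 90 days, and Uqcrq is drawn at the edge of the axis on 2 LY arrays of 90 days.

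Complex I is the entry point for electrons from NADH. At 180 days its estimate was higher in LY ovaries in 30 of 31 subunits, with a median of 0.21. All 25 accessory subunits had estimates at or above 0.00, with a median of 0.21, and 17 of them (68.0%) did not overlap between the groups. Without Ndufa4l2 these counts were 29 of 30, 24 and 16. The LY values were all above in 16.0% of named genes and in 29.9% of those of at least 16 units. The same shares stand beside the counts of the other complexes. Of the 6 core subunits, the conserved ones that catalysis needs, 5 were higher in estimate, with a median of 0.16. The exception was Ndufs3, a core subunit of the arm that faces the matrix, at 23.9, 23.8 and 21.9 units in black and 25.2, 21.8 and 21.2 units in LY ovaries, a difference of -0.03 ± 0.12 (SE, n = 3 per group). A second Ndufs3 probe gave 0.25. Ndufc1, an accessory subunit of the membrane arm, had the lowest p of the complex, at 58.1, 53.2 and 52.8 units in black and 65.7, 68.0 and 69.9 units in LY ovaries. The groups did not overlap, and the difference was 0.31 ± 0.10 with a limma adjusted p of 0.267. Ndufa2, an accessory subunit of the matrix arm, was at 78.0, 87.9 and 67.9 units in black and 98.4, 92.6 and 93.4 units in LY ovaries, again with no overlap, and its difference was 0.29 ± 0.10 (limma adjusted p = 0.296).

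Complex II, succinate dehydrogenase, belongs to both the citric acid cycle and the chain, and all of its 4 subunits are nuclear. All 4 had a higher estimate in LY ovaries at 180 days, from 0.05 to 0.30, and 1 was without overlap. This was Sdha, the flavoprotein that oxidizes succinate, at 67.9, 65.0 and 70.2 units in black and 85.4, 75.3 and 80.7 units in LY ovaries, a difference of 0.25 ± 0.10 (limma adjusted p = 0.369). Sdhb, the iron-sulfur subunit, gave 0.05 ± 0.16, and -0.03 with quantile normalization. Sdhd, a membrane anchor, was at 27.7, 33.4 and 26.7 units in black and 37.8, 37.1 and 33.1 units in LY ovaries, so that 1 LY value lay just below the highest black value.

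Complex III passes electrons from coenzyme Q to cytochrome c. Its 9 members had the smallest median of the complexes, 0.12, with 8 higher estimates. In 2 members (Uqcrc1 and Uqcrq) the groups did not overlap. This share of 22.2% was below the 29.9% of named genes of at least 16 units. Uqcrc1, a core protein of the complex, was at 1.04 units on all 3 black arrays and at 1.21, 1.11 and 1.23 units on the LY arrays, a difference of 0.19 ± 0.11 (limma adjusted p = 0.553). Uqcr11, a small subunit, was at 27.7, 35.5 and 26.4 units in black and 34.6, 31.6 and 35.9 units in LY ovaries, and the groups overlapped. The subunit Uqcrq was near or under 0.2 units on most arrays, and its estimates of 0.45 ± 0.84 at 180 days and -1.36 ± 0.84 at 90 days rest on values at the limit of sensitivity. At 90 days its value of 0.0128 units on LY replicate 3 set the size. With a floor of 0.2 units the 90-day estimate became 0.04. Uqcr10, a small subunit, was the single lower estimate, at -0.06 ± 0.14, and Cyc1, cytochrome c1, gave 0.11 ± 0.09.

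ATP synthase had the largest median of the complexes, 0.23. All 16 of its members had a higher estimate in LY ovaries at 180 days, 9 of them (56.2%) without overlap. Atp5g1, which encodes the c subunit of the rotating ring, was at 37.0, 43.5 and 37.8 units in black and 59.1, 59.6 and 54.3 units in LY ovaries. Each LY value was well above each black value, and the difference of 0.55 ± 0.09, or 1.47-fold, was the largest among the members (95% interval 0.35 to 0.75). Its limma adjusted p was 0.0830, and it was under 0.05 in 3 of 23 alternatives, which ranged from 0.0229 to 0.320. Quantile normalization reduced the difference to 0.26. A second, dimmer Atp5g1 probe gave 0.10 ± 0.16 at 180 days and 0.36 ± 0.16 at 90 days, where the chosen probe gave -0.09 ± 0.09. The c subunit is made from 3 genes whose mature proteins are the same, and the other two gave 0.20 ± 0.09 (Atp5g2) and 0.05 ± 0.09 (Atp5g3). Atp5d, the delta subunit of the central stalk, was at 130, 137 and 120 units in black and 157, 149 and 159 units in LY ovaries, with no overlap, and its difference was 0.27 ± 0.08 (limma adjusted p = 0.267).

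Complex IV, cytochrome c oxidase, was the most mixed. Of its 15 tested members, 11 had a higher and 4 a lower estimate at 180 days, with a median of 0.14. Cox5a, a subunit on the matrix side, was at 8.26, 9.01 and 7.83 units in black and 11.1, 10.9 and 10.2 units in LY ovaries. Its difference of 0.36 ± 0.08, or 1.29-fold, did not pass the test (limma adjusted p = 0.154, and 0.0472 to 0.423 over 23 alternatives). Cox7c, a small membrane subunit, was at 120, 123 and 104 units in black and 143, 134 and 145 units in LY ovaries, a difference of 0.28 ± 0.10 (limma adjusted p = 0.294). The 4 lower estimates came from the isoforms Cox8b, Cox4i2 and Cox7a1 and from Cox7a2l. Several subunits of this complex are made from a widely used gene and from a gene best known from heart and skeletal muscle (Cox6a2, Cox7a1, Cox8b) or from lung (Cox4i2).

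Cox8b was lower in LY ovaries at 180 days, at 0.911, 0.902 and 0.664 units against 1.03, 1.03 and 1.15 units, and it was the single member whose groups were separated in that direction. Its difference was -0.39 ± 0.14 (limma adjusted p = 0.325), beside 0.10 ± 0.08 for the widely used Cox8a. Cox4i2 was at 1.85, 1.32 and 1.59 units in LY and 2.42, 1.71 and 1.85 units in black ovaries, a difference of -0.33 ± 0.17 with overlap, beside 0.14 ± 0.11 for Cox4i1. Cox7a1 gave -0.27 ± 0.19, beside 0.14 ± 0.13 for Cox7a2. The related Cox7a2l gave -0.14 ± 0.09. Cox6a2 went the other way, at 1.18, 1.74 and 1.06 units in LY and 1.06, 0.703 and 0.945 units in black ovaries, a difference of 0.54 ± 0.21 (limma adjusted p = 0.343), beside 0.01 ± 0.12 for Cox6a1. Cox6b1 and Cox7b, whose sister isoforms are best known from testis, gave 0.33 ± 0.13 and 0.21 ± 0.20. The isoforms from muscle therefore did not share a direction. The summed levels of 10 striated muscle markers were 2.30 to 2.78 units in LY and 2.50 to 2.72 units in black ovaries, with Myh1 and Tnnc2 under 0.2 units on all 6 arrays. Those of 4 brown fat markers were 2.70 to 3.27 and 2.38 to 2.56 units, without overlap, with Ucp1 and Cidea under 0.2 units on all LY arrays. Of the 3 brown fat markers tested, 2 had a higher and 1 a lower estimate in LY ovaries, from -0.73 to 0.40. The part of striated muscle and brown fat in these values was not tested. At 90 days Cox4i2 and Cox7a1 were again lower in estimate, by -0.37 ± 0.17 and -0.37 ± 0.19, and without overlap in both.

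**Figure D2:**
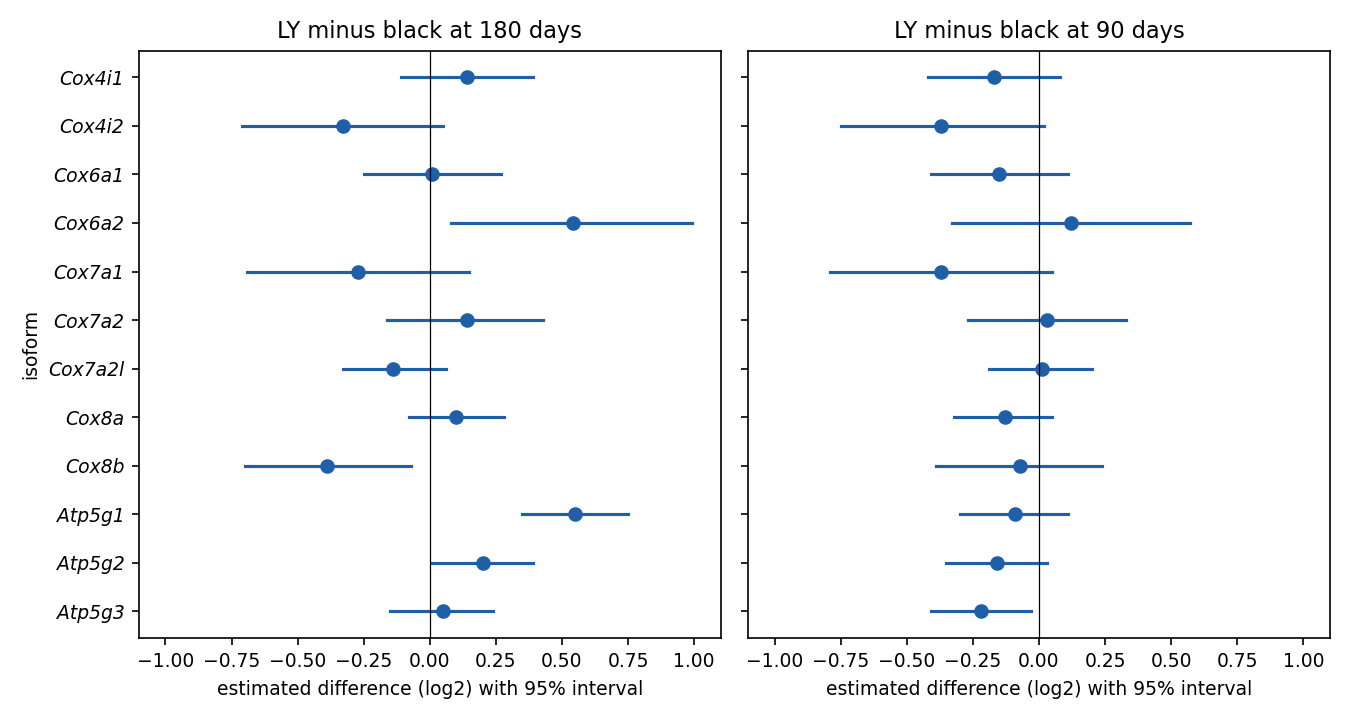
Estimated difference between LY and black ovaries (log2, dot) with its 95% interval (line) for isoforms of complex IV subunits and of the c subunit of ATP synthase, at 180 days on the left and 90 days on the right. Atp5g1, at 0.55, lies farthest to the right at 180 days, and Cox8b, at -0.39, farthest to the left.

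The 7 tested members that are no subunits had 7 higher estimates at 180 days and a median of 0.17. Ndufaf7, an arginine methyltransferase that modifies a complex I subunit during assembly, was at 15.6, 15.4 and 15.3 units in black and 17.9, 20.4 and 17.3 units in LY ovaries. Its second probe gave 0.28, beside 0.26 for the chosen one. The assembly factors Ndufaf1, Ndufaf3, Ndufaf5 and Ndufaf6 gave 0.17, 0.17, 0.19 and 0.16, and Ndufaf4 0.04. The pseudogene Ndufs5-ps was at 38.4, 39.9 and 32.1 units in black and 49.6, 45.4 and 43.0 units in LY ovaries (0.33 ± 0.12). Whether its probe also reads its parent gene was not tested.

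At 90 days the direction was the opposite and the differences were smaller. The estimate was lower in LY ovaries in 67 of 82 members (81.7%), beside 55.7% of named genes. The median was -0.10, beside -0.03 for all named genes and -0.09 for named genes of at least 16 units, so that the members' median was near that of other bright genes, of which 73.3% had a lower estimate. With limma, 0 members were called, beside 0.0613% of named genes. Without adjustment, limma p was under 0.05 in 0 members with a higher and 7 with a lower estimate, beside 4.13% and 10.7% of named genes. The methods' t-test called 1 higher and 7 lower without adjustment and 0 with it, again with no share of named genes given for this test. The groups did not overlap in 2 members higher (Atp5e and Ndufaf4) and 15 lower in LY ovaries, beside 5.69% and 12.5% of named genes and, for the lower ones, 20.0% of named genes of at least 16 units. Without black replicate 2, the median was -0.05 and 54 members were lower.

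By complex, the medians at 90 days were -0.10 for complex I, -0.09 for complex II, -0.08 for complex III, -0.10 for complex IV and -0.09 for ATP synthase. Ndufaf7 had the lowest p, at 15.9, 18.7 and 14.6 units in black and 12.4, 12.5 and 13.5 units in LY ovaries. The groups were apart, and the difference was -0.35 ± 0.11, or 0.784-fold (limma adjusted p = 0.207). Ndufs4, an accessory subunit whose loss causes complex I deficiency, was at 42.3, 48.9 and 46.2 units in black and 37.8, 41.5 and 37.1 units in LY ovaries, a difference of -0.24 ± 0.10 (limma adjusted p = 0.325). Ndufa1, needed for assembly of the membrane arm, was at 60.7, 62.9 and 66.7 units in black and 48.2, 61.4 and 50.1 units in LY ovaries, and overlapped in 1 value. Atp5e, the epsilon subunit of ATP synthase, was an exception, at 82.8, 75.1 and 74.7 units in black and 87.5, 88.6 and 87.9 units in LY ovaries, and its estimate was also above 0 at 180 days, at 0.22 ± 0.09. Ndufaf4 was at 12.3, 11.4 and 9.77 units in black and 12.8, 12.5 and 12.4 units in LY ovaries, with no overlap (0.17 ± 0.10). Other positive estimates were small: Uqcrb, a complex III subunit, gave 0.09 ± 0.14, Ndufs8, a core subunit of complex I, 0.06 ± 0.09, and Atp5mpl, a small ATP synthase protein, 0.13 ± 0.10. Uqcrfs1, the Rieske iron-sulfur protein of complex III, gave -0.15 ± 0.12, and Atp5g3 -0.22 ± 0.09, at 185, 193 and 208 units in black and 161, 172 and 170 units in LY ovaries.

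**Figure D3:**
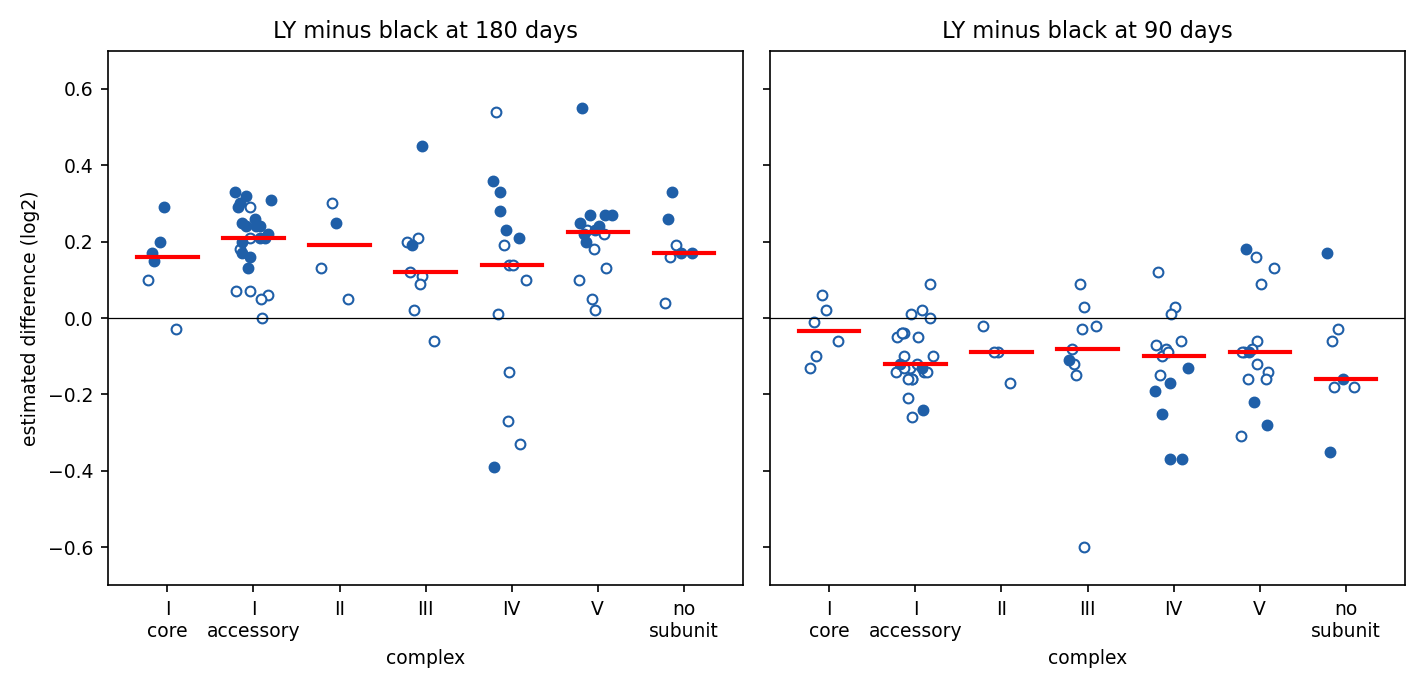
Estimated difference between LY and black ovaries (log2) for each tested member at 180 days (left) and 90 days (right), by complex, with the median as a red bar. Filled dots are members whose 2 groups did not overlap, 42 of them above 0 and 1 below it on the left, and 2 above and 15 below it on the right. Uqcrq, at -1.36, is drawn at -0.6 in the right panel.

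The comparisons at the 2 ages share no animals. A higher estimate at 180 days together with a lower one at 90 days was seen in 62 of 82 members (75.6%), beside 33.1% of named genes. Among named genes of at least 16 units, 71.6% were higher at 180 days and 73.3% lower at 90 days. Their share with both was not computed, so the members' pattern is not shown to differ from that of bright genes. In 7 members (Atp5l, Cox5a, Cox7c, Ndufa2, Ndufa8, Ndufaf1 and Ndufaf7) the groups were separated upward at 180 days and downward at 90 days (8.54%, beside 2.74% of named genes). These counts rest on division by the array median. With quantile normalization they were 31 members and 2 (Cox5a and Ndufaf7), beside 27.1% and 1.59% of named genes, and with the scale set by bright probes, which was chosen after seeing the data, 47 and 1 (Ndufaf7), beside 19.4% and 0.785%. Ndufa8 gave 0.21 at 180 days and -0.13 at 90 days, but 0.05 at both ages with quantile normalization. Cox5a was at 10.3, 10.4 and 11.2 units in black and 9.32, 9.55 and 9.07 units in LY ovaries of 90 days, so that LY lay below black there and above it at 180 days. Atp5l, the g subunit in the membrane part of ATP synthase, was at 68.5, 73.1 and 60.0 units in black and 80.6, 81.3 and 79.6 units in LY ovaries of 180 days, and at 36.4, 39.9 and 42.3 against 29.6, 36.1 and 32.3 units at 90 days. Cox7c was at 109, 122 and 129 units in black and 98.8, 97.4 and 106 units in LY ovaries of 90 days.

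The difference between the genotype effects at the 2 ages was tested as an interaction. It was positive in 77 of 82 members, beside 60.2% of named genes, with a median of 0.28, beside 0.07 for all named genes and 0.18 for those of at least 16 units, of which 78.5% were positive. With limma 0 members were called, beside 0% of named genes, and 0 of the 31359 probes tested passed. Unadjusted limma p was under 0.05 in 24 members (29.3%) with a positive and 0 with a negative value. The shares were 11.1% and 3.29% of named genes, and 24.5% and 1.36% of those of at least 16 units. Atp5g1 had the lowest limma adjusted p, 0.107, with an interaction of 0.65 ± 0.13, while its second probe gave -0.26 ± 0.23. It was followed by Cox5a, with 0.55 ± 0.12 (limma adjusted p = 0.111), and Ndufaf7, with 0.61 ± 0.15 (limma adjusted p = 0.154). The methods' t-test has no interaction term.

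**Figure D4:**
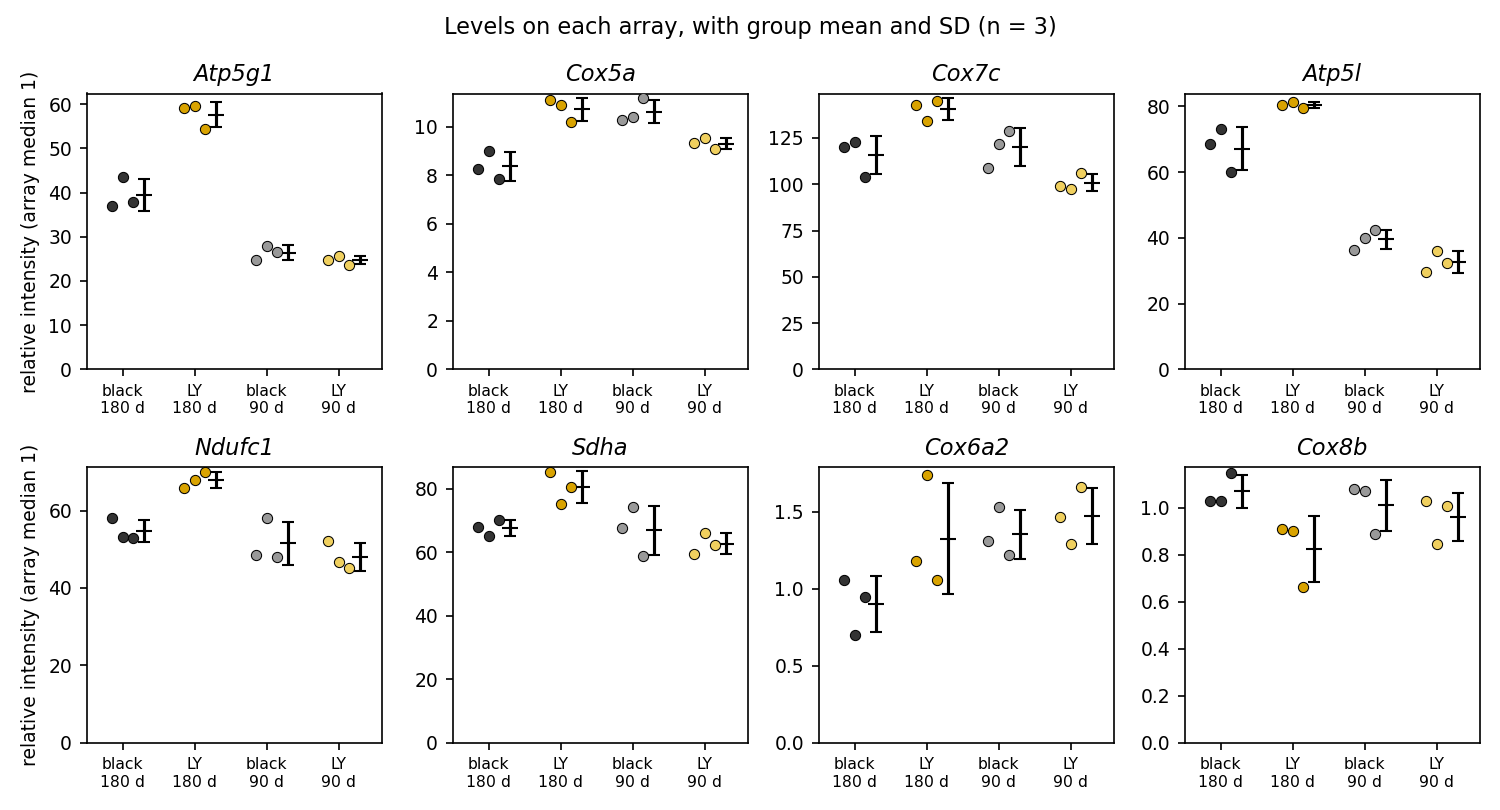
Levels of 8 members on each of the 12 arrays, in relative intensity units with the array median at 1, with the mean and SD of each group of 3 beside the dots. Atp5g1 and Cox5a were higher in all 3 LY ovaries of 180 days than in all 3 black ones, and Cox8b was lower.

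The scale of the arrays mattered for these small differences. Under quantile normalization the median of the members was 0.09 at 180 days and -0.01 at 90 days, beside 0.02 and 0.00 for all named genes. Higher estimates were then seen in 61 members (74.4%) at 180 days, beside 55.5% of named genes. Lower ones were seen in 45 (54.9%) at 90 days, near the 49.1% of named genes. At 180 days the groups did not overlap in 24 members higher and 3 lower, beside 14.0% and 8.31% of named genes. When the median of bright probes (mean of 16 units or more) set each array's scale instead, an option chosen after seeing the data, the medians were 0.10 and -0.08, and those of all named genes were -0.06 and -0.01. Under this scaling 23 members were separated upward and 2 downward at 180 days, beside 6.41% and 16.9% of named genes. At 90 days the separated members were 6 higher and 4 lower with quantile normalization, beside 7.57% and 9.36% of named genes, and 2 higher and 5 lower with the bright-probe scale, beside 4.17% and 8.67%. Under all 3 scalings, 60 members kept a higher and 6 a lower estimate at 180 days, and 45 kept a lower and 15 a higher estimate at 90 days. The same counts over all named genes are not given here, so these have no background beside them.

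Cell type markers moved with the same comparisons. At 180 days the summed level of the 9 granulosa markers on the arrays was 174 to 232 units in LY and 240 to 321 units in black ovaries, and that of the 10 oocyte markers was 51.1 to 77.4 and 78.4 to 105 units. Both were lower in LY without overlap, and the median differences were -0.41 and -0.46. At 90 days the granulosa markers were at 286 to 416 units in LY and 284 to 388 units in black ovaries, with a higher estimate in LY in 8 of 9 and a median of 0.25. The oocyte markers were then at 74.3 to 77.2 and 63.9 to 84.4 units, with a higher estimate in 9 of 10 and a median of 0.14. Over the 2 ages the genotype difference of both lists thus ran opposite to that of the members, and their median interactions were -0.64 and -0.60. With limma 0 of these markers were called in the genotype comparisons and the interaction. The theca and interstitial markers at 180 days were at 261 to 400 and 220 to 279 units. At 90 days the luteal markers were at 34.0 to 46.1 units in LY and 59.0 to 93.5 units in black ovaries, the surface epithelium markers at 17.5 to 19.2 and 22.1 to 32.0 units, and the oviduct cilia markers at 3.30 to 3.42 and 4.36 to 6.92 units. The part of these cells in the members' values was not tested.

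Other genes that serve the chain were read from lists given here by function. At both ages limma called 0 of them, beside 0.0797% of named genes at 180 days and 0.0613% at 90 days. A higher estimate at 180 days was seen in 59.2% of named genes and in 71.6% of those of at least 16 units. A lower one at 90 days was seen in 55.7% and 73.3%, and the counts of the lists are to be read against these shares. Of the 31 assembly factors tested, 26 (83.9%) had a higher estimate at 180 days, with a median of 0.10. At 90 days 20 (64.5%) had a lower one, with a median of -0.06. Atpaf1, a chaperone for ATP synthase assembly, was at 3.21, 4.03 and 3.19 units in black and 2.47, 2.25 and 2.48 units in LY ovaries of 90 days, a difference of -0.53 ± 0.11 (limma adjusted p = 0.102) that was 0.01 ± 0.11 at 180 days. Its partner Atpaf2 gave -0.25 ± 0.08 at 90 days. Bcs1l, which inserts the iron-sulfur subunit into complex III, gave 0.29 ± 0.08 at 180 days without overlap, and Coa7, a complex IV assembly factor, 0.21 ± 0.08. Of 15 electron carriers and coenzyme Q genes, 13 were higher in estimate at 180 days, with a median of 0.16. Among them Cycs, cytochrome c itself, was at 64.4, 60.1 and 55.4 units in black and 76.5, 74.8 and 74.2 units in LY ovaries (0.33 ± 0.09), and gave 0.00 ± 0.09 at 90 days. Etfb, a subunit of the electron transfer flavoprotein, gave 0.26 ± 0.10 at 180 days. At 90 days Coq8b, which serves coenzyme Q synthesis, gave -0.35 ± 0.12, and Gpd2, which feeds electrons from glycerol phosphate, -0.27 ± 0.11.

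The 16 pyruvate dehydrogenase and citric acid cycle genes had medians of 0.13 at 180 days and -0.06 at 90 days. Cs, citrate synthase, gave 0.38 ± 0.12 and -0.08 ± 0.12, and Mdh2, malate dehydrogenase, 0.32 ± 0.10 and -0.20 ± 0.10. The dehydrogenase subunits Dlat and Dlst gave -0.32 ± 0.11 and -0.27 ± 0.10 at 90 days. The 22 import and membrane proteins had medians of 0.16 and -0.10, with the chaperone Hspa9 at 0.35 ± 0.10 and -0.19 ± 0.10. Opa1, which shapes the inner membrane, gave 0.35 ± 0.10 at 180 days, and the import channel proteins Tomm40 and Timm23 gave -0.30 ± 0.11 and -0.24 ± 0.08 at 90 days. The 9 uncoupling and antioxidant genes had medians of 0.27 and -0.12. Gpx4, which reduces lipid peroxides, gave 0.34 ± 0.10 and Txn2, mitochondrial thioredoxin, 0.27 ± 0.09 at 180 days, and Sod2, mitochondrial superoxide dismutase, -0.33 ± 0.14 at 90 days. The reductase Txnrd2, which keeps mitochondrial thioredoxin reduced, was at 2.08, 2.11 and 2.11 units in black and 1.50, 1.56 and 1.54 units in LY ovaries of 90 days, a difference of -0.45 ± 0.09 (limma adjusted p = 0.0888).

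The 23 regulators of respiratory genes had medians of -0.02 and 0.02, and 10 higher and 13 lower estimates at 180 days. Nrf1, the gene for NRF-1, gave -0.08 ± 0.10, Gabpa, a subunit of GABP, 0.19 ± 0.14, Esrra, the gene for ERR alpha, 0.10 ± 0.16, Yy1, the gene for YY1, -0.24 ± 0.13, the coactivator Ppargc1a -0.16 ± 0.40, and Tfam, which packs mitochondrial DNA, 0.01 ± 0.16 at 180 days. Esrrg, a relative of Esrra, gave 0.21 ± 0.11. At 90 days Twnk, the helicase of mitochondrial DNA, gave -0.34 ± 0.12 and Polg2, a subunit of its polymerase, -0.30 ± 0.14. Ppargc1a was near the limit of sensitivity, at 0.192 to 0.410 units at 180 days.

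The shift was not shown to be particular to the respiratory chain. The 72 mitochondrial ribosomal proteins had medians of 0.19 at 180 days and -0.10 at 90 days, the 37 proteasome subunits 0.16 and -0.11, and the 57 cytosolic ribosomal proteins 0.12 and -0.03. The members, at 0.20 and -0.10, lay nearest to the mitochondrial ribosomal proteins.

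Between 180 and 90 days, averaged over genotype, many members differed, as did many of all named genes. The difference was at least 2-fold in 8 of 82 members, beside 1566 of 16306 named genes, a similar share. The 180-day arrays were run first and the 90-day arrays afterwards, so that an effect of age cannot be told apart from one of the array set. With limma 43 members were called higher and 9 lower at 180 days, beside 30.5% and 28.4% of named genes. The median was 0.20, beside 0.01 for all named genes and 0.11 for those of at least 16 units. With quantile normalization the split was 17 higher and 39 lower, beside 26.5% and 32.4% of named genes, and the median of the members was -0.23. With the scale set by bright probes it was 16 and 29, beside 12.1% and 52.7%, and the median of the members was -0.14, while that of all named genes moved to -0.33. Under all 3 scalings 19 members kept a higher and 23 a lower estimate at 180 days, and 40 turned, again with no such count of named genes given.

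The called differences of single members included several of complex I. Ndufa5, an accessory subunit of the matrix arm, was at 4.20, 4.26, 3.83, 4.03, 4.03 and 4.27 units on the 90-day arrays and at 11.8, 14.8, 10.9, 17.1, 15.7 and 12.8 units on the 180-day arrays, with no overlap. Its difference was 1.73 ± 0.10, or 3.33-fold (limma adjusted p = 1.26e-07), and 1.73 and 1.39 under the other scalings. Ndufs3 gave 1.62 ± 0.09, and 1.57 and 1.28 under the others, and its second probe gave 1.96. Ndufb7, an accessory subunit of the membrane arm, gave 1.39 ± 0.06, and 1.40 and 1.05. Ndufa6 gave 1.43 ± 0.07, but 0.44 under quantile normalization, and Atp5j, coupling factor 6 of ATP synthase, gave 1.24 ± 0.07 but 0.17 under that normalization. In the other direction, Ndufab1, the acyl carrier protein of complex I, was at 2.61 to 3.20 units on the 90-day arrays and 1.60 to 1.88 units on the 180-day arrays, a difference of -0.74 ± 0.07 (limma adjusted p = 9.80e-06), and -0.69 and -1.08 under the other scalings. Its second probe gave -0.27 ± 0.08. Ndufb2, a small accessory subunit, gave -0.61 ± 0.08, and -0.83 and -0.96. Atp5g2 gave -0.39 ± 0.06, and -1.05 and -0.73, against 0.90 ± 0.06, 0.48 and 0.56 for Atp5g1. Ndufa4l2 gave -0.28 ± 0.08, and -0.31 and -0.63. Cox6a2 gave -0.39 ± 0.15 (limma adjusted p = 0.0385), and this call was lost in 12 alternatives, among them quantile normalization (-0.37, limma adjusted p = 0.0531), the replicate block (limma adjusted p = 0.0959) and array weights (limma adjusted p = 0.134).

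**Figure D5:**
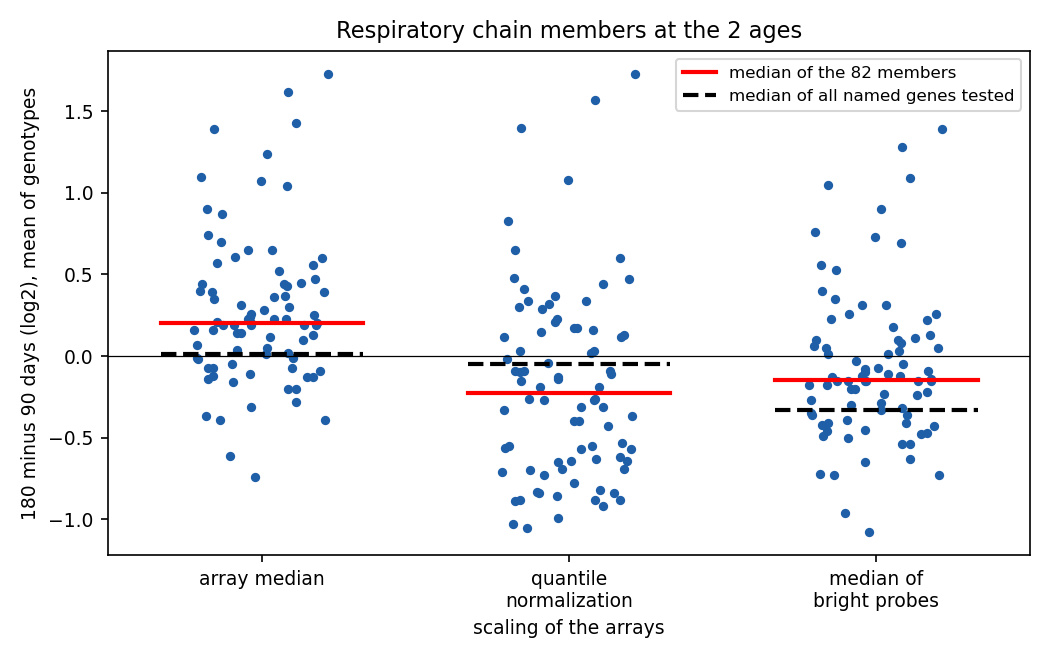
Difference between 180 and 90 days (log2, mean of both genotypes) of the 82 tested members under 3 ways of scaling the arrays, with the median of the members (red) and of all named genes tested (dashed). The median of the members is 0.20 with the array median and -0.23 and -0.14 with the other 2 scalings.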

How the data were processed

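Ovarian RNA of 12 mice was run on 1-colour CodeLink arrays. The authors used GenePix for scanning, the CodeLink software for background correction and GeneSpring 7.0 for normalization, and deposited relative intensity values scaled to each array's 50th percentile. Here, values were divided by the array median, floored at 0.01 units and log2 transformed. Probes with a value in each group and a mean of at least 0.2 units in 1 group were kept (31359 of 36227). A model of 4 group means over 12 arrays was fitted with limma 3.58.1 (R 4.3.3, lmFit and eBayes, 8 residual degrees of freedom), with Benjamini-Hochberg adjustment over all tested probes and a threshold of 0.05. The code was tested on simulated data. Probes were named from the platform annotation (21615 with 1 symbol, 681 with several, 13931 with none), and 6 probes on which a member's name stands beside others were left out. Each probe is compared only with itself. Alternatives were the methods' t-test, other scalings, filters, floors and probe rules, an intensity trend, array weights, a replicate block and leaving out each array. The members and the lists were chosen with earlier results of these data known. Named are members past the threshold in a genotype comparison or the interaction, up to 2 per complex, direction and age by smallest p, all isoforms and non-subunits, the 4 highest and 4 lowest called age differences, members whose probes differ by over 0.5, and up to 2 genes of each other list per age plus Nrf1, Gabpa, Esrra, Ppargc1a and Tfam. Ndufa8, Atp5j and Atp5k were chosen after their values were seen. The number of arrays limits the precision. The limma p-values rest on the spread between mice within groups, pooled over the 4 groups of 3 and drawn toward that of all tested probes.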

Additional observations from a re-analysis of the deposited data

How the results depend on the processing

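The 3 mice per group limit the precision, and Uqcrq was near the limit of sensitivity. Calls at 180 days were 1 with probes at or above 0.2 units on all arrays or with an intensity trend, 2 with array weights and 32 with the methods' t-test without adjustment, which called 1 higher and 7 lower at 90 days. The interaction had 1 call with an intensity trend. Quantile normalization gave members' medians of 0.09 at 180 days, -0.01 at 90 days and 0.11 for the interaction, and bright-probe scaling, chosen after seeing the data, gave 0.10 at 180 days and 0.16 for the interaction. The age median turned to -0.23 (17 called higher, 39 lower) and -0.14 (16 and 29) with these, and was 0.15 without division by the array median. Leaving out single arrays gave medians of 0.16 to 0.23 at 180 days, -0.13 to -0.05 at 90 days and 0.24 to 0.33 for the interaction, with 0 limma calls in these comparisons. Replicate numbers were not used as pairs in the main model. Same-number correlations were -0.06896 to -0.004883 at 180 and 0.05155 to 0.1482 at 90 days. Those of different numbers were -0.008126 to 0.06059 and -0.1608 to 0.1175. At 90 days the same-number values were thus all above 0, and most of the others were below it. With the replicate block the calls were 0 in both genotype comparisons and the interaction, and 40 higher and 6 lower for age. Shares of named genes called are not given for the t-test, the replicate block, the intensity trend or the array weights. They are not given for probes at or above 0.2 units on all arrays either, so these counts have no background beside them. Over all 82 members, estimates changed sign between the 3 scalings in 16 members at 180 days, in 22 at 90 days and in 40 for age. Among genes named in the text, those that turned at 180 days included Sdhb (-0.03) and Atp5c1 (-0.02) with quantile normalization, Atp5g3 (-0.05), Cox6a1 (-0.12), Cox8a (-0.01) and Ndufaf4 (0.00) with quantile normalization, Atp5g3 (-0.05), Cox6a1 (-0.09), Cox8a (0.00) and Ndufaf4 (-0.07) with bright-probe scaling, Cox6a1 (-0.01) with array weights and Ndufs3 (0.11) with the mean of all probes. At 90 days they included Ndufa8 (0.05), Cox6b1 (0.00), Ndufaf5 (0.06) and Sdha (0.01) with quantile normalization, Cox7a2l (-0.01) with array weights, Uqcrq (0.04) with a floor of 0.2 units, and Atp5c1 (0.13) and Atp5g1 (0.13) with the mean of all probes. Leaving out 1 array at 180 days gave -0.02 to 0.09 for Atp5g3 and for Ndufaf4, -0.02 to 0.04 for Cox6a1, -0.01 to 0.23 for Cox7a2 and -0.11 to 0.02 for Ndufs3. At 90 days it gave -0.05 to 0.09 for Cox7a2, -0.04 to 0.05 for Cox7a2l, -0.31 to 0.14 for Cox7b, -0.17 to 0.01 for Cox8b, -0.02 to 0.09 for Cyc1, -0.11 to 0.07 for Ndufaf5, -0.16 to 0.04 for Ndufaf6 and -0.03 to 0.11 for Ndufs8. The age call of Cox6a2 was lost in 12 alternatives (limma adjusted p = 0.0507 to 0.134). The causes were not tested.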

Other observations

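Of the members left out of the test, Ndufaf8, an assembly factor of complex I, was between 0.016 and 0.169 units on all 12 arrays. Cox7b2, an isoform best known from testis, was under 0.2 units on 10 of them and reached 0.513 units on black replicate 2 and 0.23 units on LY replicate 1 of 90 days. Among 10 genes with a second probe, Atp5c1, the gamma subunit of ATP synthase, gave 0.48 and 0.57 at 180 and 90 days by a dim second probe, against 0.10 and -0.31 by the chosen probe, whose 180-day value was -0.02 with quantile normalization. Uqcr10 gave -0.07 and 0.33 by its second probe and -0.06 and -0.02 by the chosen one.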
